A study of Homo sapiens with 4 samples.

Results

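RNA sequencing was done on Caki-1, a long-established human line from a renal cell carcinoma, after knockdown of the transcription factor TFE3, and the account here covers SLC36A1 and the other exporters through which lysosomes release the products of digestion. The 10 genes were chosen by name and function among 61533 counted gene identifiers, with earlier results of these data known. All are carriers of amino acids, peptides, cystine, sialic acid or nucleosides in the lysosomal membrane. They are SLC36A1, SLC36A4, SLC38A7, SLC38A9, SLC66A1 (formerly PQLC2), SLC15A3, SLC15A4, CTNS, SLC17A5 and SLC29A3, and each matched exactly 1 identifier. The shTFE3 group had 2 libraries from cells transduced with lentivirus that carried short hairpin RNA against TFE3, genotype label TFE3-KD, and the shControl group had 2 libraries from cells transduced with a control sequence, genotype label WT. Cells of both groups were grown in medium with serum, replated 24 hours after infection, given 1 µg/ml puromycin 12 hours later and collected after 3 days of selection. None of the 4 libraries analysed here is labelled as deprived of glucose, although the series title names resistance to glucose starvation. The labels do not give the hairpin sequences or their number, nor do they tell whether the libraries of a group stem from separate infections. The p-values therefore reflect only how far these libraries spread, which may be technical. The edgeR fit had 2 residual degrees of freedom and a median of 22.4 prior ones, borrowed from other genes. Each p-value thus rests mostly on a spread shared across genes.

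Lysosomes break proteins, nucleic acids and glycans down to small molecules, which leave through carriers in the lysosomal membrane, most of them driven by the proton gradient across it. Several of these carriers also report the content of the lysosome to mTORC1, the kinase complex that couples growth to nutrients, and TFE3 is known as an activator of lysosomal genes that mTORC1 holds in the cytoplasm when nutrients are plentiful. SLC36A1 exports small neutral amino acids such as glycine, alanine and proline, and the series names it beside TFE3.

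Gene counts totalled 17742519 and 17631154 in shTFE3 replicates 1 and 2, and 17316158 and 17270180 in shControl replicates 1 and 2. Levels are given in CPM, the gene's count scaled to a common library total with TMM factors, and 3 counts, the level below which a gene was taken as not detectable, were 0.167 to 0.176 CPM, for counting error only. TFE3 itself averaged 68.5 ± 2.25 CPM in shTFE3 and 129 ± 2.04 CPM in shControl (SD, n = 2 each), 52.9% of the control level, in the direction of the labels. Of 9 markers of renal epithelium, 7 were tested, of which 3 were lower and 0 higher after knockdown. Those 3 were the cadherin genes CDH2 (log2 fold change -0.64, edgeR adjusted p 2.45e-06) and CDH6 (-0.55, edgeR adjusted p 5.95e-07) and the keratin gene KRT18 (-0.28, edgeR adjusted p 0.00191). The 9 markers summed to 1192 and 1178 CPM in shTFE3, against 1283 and 1321 CPM in shControl. PAX8, a renal lineage factor, had 8351 and 8250 counts in shTFE3 and 7235 and 7740 in shControl and did not pass, while PAX2 had 0 in every library. The part of these marker changes in the results on exporters was not tested. Of 7 leukocyte markers, 5 had at most 3 counts in every library, as did 4 of 6 fibroblast and 2 of 4 endothelial markers. Others were above that, such as the fibroblast markers PDGFRB (232 and 220 counts in shTFE3, 197 and 193 in shControl) and COL1A1 (112 and 118, against 141 and 143). The endothelial marker PECAM1 had 68 and 58 counts in shTFE3, against 48 and 54 in shControl. For the leukocyte marker ITGAM these were 15 and 21, against 29 and 13. No marker of these 3 lists was called lower or higher.

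Of the 10 exporters, 6 were lower after TFE3 knockdown, 1 was higher and 3 did not pass (quasi-likelihood test of edgeR, p adjusted by Benjamini-Hochberg over 15950 tested genes, under 0.05). SLC36A1, SLC15A4, SLC38A7, CTNS, SLC17A5 and SLC66A1 fell, SLC29A3 rose, and SLC36A4, SLC38A9 and SLC15A3 did not pass. Over all tested genes 12.9% were called lower and 10.3% higher, 23.3% in all. Because the genes and the related lists were chosen with earlier results known, such shares are descriptions only. The median log2 fold change of the 10 exporters was -0.33, against 0.0015 for all tested genes. All 10 passed the filter on low counts. In 8 of the 10 the libraries of the groups did not overlap in CPM, 6 on the lower and 2 on the higher side, while over all tested genes 30.5% lay apart on the lower side and 29.8% on the higher, 60.3% in all. Without filtering low counts only SLC15A4 was called lower, 1 gene in place of 6, and the number was 3 with DESeq2 and 2 when either shTFE3 replicate 1 or shTFE3 replicate 2 was left out. In a bulk sample, fewer cells of a kind and less RNA per cell cannot be told apart.

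**Figure D1:**
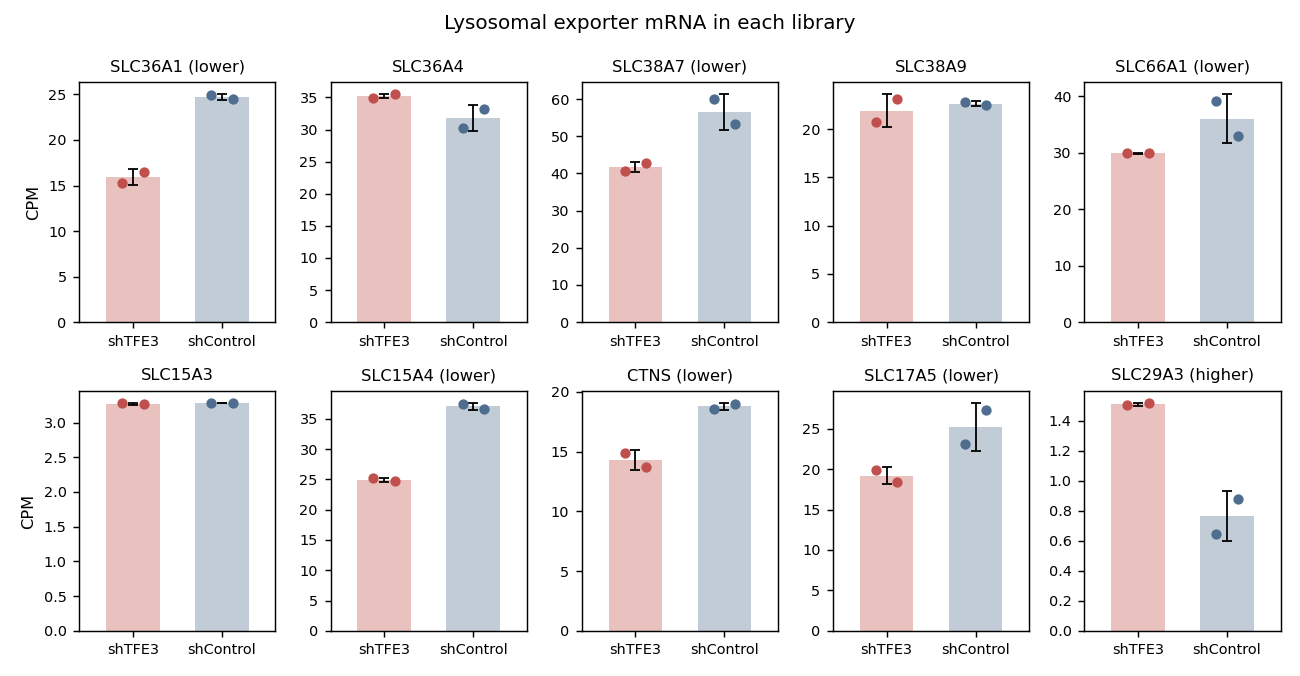
Level in CPM (vertical axes, each from 0) of the 10 exporters in the shTFE3 and shControl libraries, 1 point a library, with the bar at the mean and the line at ± SD (n = 2 each). Both shTFE3 points lie below both shControl points in the 6 genes marked lower, and above them in SLC36A4 and SLC29A3.

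SLC36A1 (ENSG00000123643, GRCh38 chromosome 5, 151437046 to 151492381, plus strand) had the lowest fitted log2 fold change of the 10. Its interval overlapped those of the other exporters called lower, from SLC15A4 (-0.74 to -0.40) to SLC66A1 (-0.45 to -0.087). Without shTFE3 replicate 1, SLC36A1 and SLC15A4 both stood at -0.58. The level of SLC36A1 was 15.3 and 16.5 CPM in shTFE3, against 24.97 and 24.5 CPM in shControl. These came from 275 and 294 counts in shTFE3, against 426 and 417 counts in shControl. The groups did not overlap, and the gap between them was several times the distance between libraries of a group. The log2 fold change was -0.64 with a 95% interval of -0.83 to -0.44 (standard error, SE, 0.095, edgeR adjusted p 1.8e-05), which placed SLC36A1 at rank 736 of 15950 tested genes counted from the most lowered. In the authors' deposited table, a list of 546 genes from their own comparison, SLC36A1 has a log2 fold change of -0.63 and an adjusted p of 0.00018. It is the only exporter of the 10 in that authors' deposited table, where the smallest absolute log2 fold change is 0.585. With no filter on low counts, when all 31954 genes with any count were tested, SLC36A1 had an edgeR adjusted p of 0.0508. It passed in the other 10 alternatives, with log2 fold changes between -0.69 and -0.58.

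The starts of SLC36A1 are shown because the promoter at 1 of them carries letters that MiT/TFE factors are known to bind. These factors recognise the E-box CACGTG, most often within the palindrome TCACGTGA, the core of the CLEAR element found at lysosomal genes, and also the M-box core CATGTG. RefSeq gives SLC36A1 separate starts at 151437046 and 151447603 of chromosome 5 (GRCh38.p14). GENCODE release 29 has 3 coding transcripts that begin within the first window and 4 within the second, between 151447596 and 151447627. The first window holds none of the 3 motifs. The second holds CACGTG at 2 places, 1 of them inside TCACGTGA, and the 250 bases before that start read as follows on the plus strand, with the motifs in capitals.
SLC36A1 second start, chr5:151447353-151447602: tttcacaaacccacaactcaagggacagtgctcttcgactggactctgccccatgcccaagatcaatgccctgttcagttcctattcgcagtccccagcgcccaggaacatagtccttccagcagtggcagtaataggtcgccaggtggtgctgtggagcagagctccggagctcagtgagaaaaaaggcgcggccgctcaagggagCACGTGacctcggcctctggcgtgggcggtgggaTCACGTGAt
The first CACGTG begins 43 bases before the RefSeq start and the palindrome 9 bases before it. The GENCODE start at 151447596 lies inside the palindrome, which spans 151447594 to 151447601. Outside both windows, GENCODE coding transcripts also begin at 151450923 and 151473673. Counts per gene do not separate transcripts by start, so which start changed was not measured.

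RefSeq promoter windows, 250 bases before to 50 after a start, were held for 9 of the 10 exporters, 15 windows in all, and were searched on both strands. SLC36A1 and SLC38A7 were the exporters with any of the 3 motifs, in 1 window each. Among 35116 RefSeq windows of that length, 7.26% hold CACGTG, 0.664% hold it at 2 or more places, 0.98% hold TCACGTGA, and 11.1% hold CATGTG. Counted by gene over the 11269 tested genes with a window, 12.3% hold CACGTG in at least 1 window, 2.19% hold TCACGTGA and 10% hold CATGTG. Places with CACGTG inside TCACGTGA count for both. SLC38A7 has CATGTG across its start and CACGTG from base 15 of the transcript. Of the 5 genes whose levels were most like that of SLC36A1, PLAC8, FLCN and GAS6 held none of the 3 motifs, DTNA held CATGTG in 1 of 7 windows, and GLMP has CATGTG 11 bases before its start. The 30 bases around each place are given on the strand of the gene, with the motif in capitals.
SLC38A7 M-box core, chr16:58684754-58684783: ccgagcgggcgtCATGTGatgcatgctcac
SLC38A7 E-box, chr16:58684739-58684768: gtgatgcatgctCACGTGtctccgcagccg
GLMP M-box core, chr1:156295673-156295702: ctgaacgcgagtCATGTGaccctctggcac
SLC15A4, CTNS, SLC17A5 and SLC66A1, which also fell, had none of these letters in their windows. These windows follow RefSeq starts and do not cover every start. GENCODE coding transcripts also begin outside them, at 3637104 and 3640147 for CTNS and at 19324754 for SLC66A1. For SLC17A5 the GENCODE coding start, 73654155, lies inside the window, which ends at 73654242, so fewer than 250 bases before it were searched. A match is a description of the letters and not of binding, and no chromatin data were analysed here.

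SLC36A4, the other member of the SLC36 family with more than a few counts in these cells, carries proline and tryptophan in Xenopus oocytes. It had 34.9 and 35.5 CPM in shTFE3, against 30.3 and 33.2 CPM in shControl, with both knockdown libraries above both controls. Its log2 fold change of 0.15 did not pass (SE 0.081, 95% interval -0.019 to 0.32, edgeR adjusted p 0.201), and it did not pass in any of the 11 alternatives. Per kilobase of exon, the ratio of SLC36A1 to SLC36A4 was 0.608 and 0.646 in shTFE3, against 1.14 and 1.02 in shControl. Which of the pair was the more abundant in shControl depends on the length used, since with the longest transcript SLC36A1 had 2.75 and SLC36A4 5.86 CPM per kilobase in shTFE3, against 4.28 and 5.28 in shControl. The ratio was lower in both knockdown libraries than in both controls and is given with no test; an exact permutation test of 2 libraries against 2 cannot give a two-sided p below 0.333. The other members of the family, SLC36A2 and SLC36A3, were not tested; SLC36A2 had at most 2 counts in a library and SLC36A3 had 0.

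**Figure D2:**
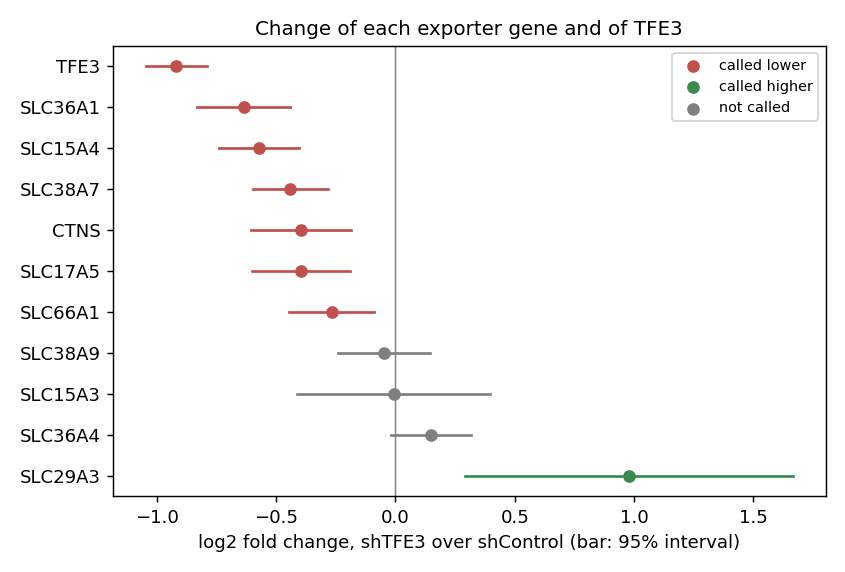
Log2 fold change of shTFE3 over shControl (horizontal axis) for TFE3 and the 10 exporters, with 95% intervals from the edgeR fit. The intervals of the 6 called lower lie below 0, from SLC36A1 at -0.64 to SLC66A1 at -0.27, and that of SLC29A3 lies above 0.

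SLC38A7 exports glutamine and asparagine from lysosomes. This gene (ENSG00000103042, chromosome 16, 58665109 to 58685104, minus strand) had 40.7 and 42.7 CPM in shTFE3, against 60.0 and 53.2 CPM in shControl. The groups did not overlap, and the control libraries lay further apart than the knockdown libraries. SLC38A7 fell (log2 fold change -0.44 ± 0.076 SE, edgeR adjusted p 0.000114). The call was lost with no filter on low counts (adjusted p 0.102), without shTFE3 replicate 1 (0.0665) and without shTFE3 replicate 2 (0.0595), with the value below 0 in all 11 alternatives.

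SLC38A9 is both an exporter and a sensor: it binds arginine in the lysosome, lets leucine and other essential amino acids out, and passes the signal to the Rag GTPases that activate mTORC1. SLC38A9 stood at 20.7 and 23.2 CPM in shTFE3, against 22.8 and 22.5 CPM in shControl, and the groups overlapped. Its log2 fold change was -0.046 with a 95% interval of -0.24 to 0.15 (edgeR adjusted p 0.776), and it did not pass in any alternative. Per kilobase of exon, the ratio of SLC38A7 to SLC38A9 was 2.48 and 2.33 in shTFE3, against 3.32 and 2.99 in shControl. Its size depends on the length used. With the longest transcript, SLC38A7 had 9.17 and SLC38A9 6.25 CPM per kilobase in shTFE3, against 12.4 and 6.45 in shControl.

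SLC66A1 exports lysine, arginine and histidine, and the mixed disulfide that forms when cysteamine is given in cystinosis. It (ENSG00000040487, chromosome 1, 19312326 to 19329300, plus strand) had 29.9 and 30.01 CPM in shTFE3, against 39.2 and 32.9 CPM in shControl. Both knockdown libraries were lower, but shControl replicate 2 lay nearer to them than to shControl replicate 1. SLC66A1 passed at a smaller size (log2 fold change -0.27 ± 0.087 SE, edgeR adjusted p 0.0276). The call was lost in 6 of 11 alternatives, among them DESeq2 (adjusted p 0.183), library totals without TMM factors (0.0592) and each fit without shControl replicate 1 (0.46, log2 fold change -0.14), shTFE3 replicate 1 (0.244) or shTFE3 replicate 2 (0.246).

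SLC15A4, a proton-coupled carrier of histidine and small peptides that is known in immune cells for relaying endosomal Toll-like receptor signals, had a fall close to that of SLC36A1. It (ENSG00000139370, chromosome 12, 128793191 to 128823983, minus strand) had 25.2 and 24.7 CPM in shTFE3, against 37.5 and 36.7 CPM in shControl. Libraries of a group lay within 1 CPM of each other and the groups far apart. For SLC15A4 the log2 fold change was -0.57 with a 95% interval of -0.74 to -0.40 (SE 0.081, edgeR adjusted p 8.78e-06). SLC15A4 was the exporter that passed in all 11 alternatives, with values between -0.59 and -0.54.

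SLC15A3, its relative with a similar substrate range, is known mainly from macrophages and dendritic cells and was near the low end of the range. It had 59 and 58 counts in shTFE3, against 56 and 56 in shControl, and 3.28 and 3.26 CPM in shTFE3, against 3.28 and 3.29 CPM in shControl. A log2 fold change of -0.0059 was fitted, but with a 95% interval of -0.41 to 0.40 a change of the size seen in CTNS or SLC17A5 was not detectable at this depth. Per kilobase of exon, SLC15A4 exceeded SLC15A3 8.53-fold and 8.44-fold in shTFE3, against 12.7-fold and 12.4-fold in shControl. The size of this excess depends on the length used. With the longest transcript, SLC15A4 had 8.98 and SLC15A3 0.714 CPM per kilobase in shTFE3, against 13.4 and 0.717 in shControl. Among leukocyte markers the monocyte gene CD14 had 10 and 11 counts in shTFE3 against 2 and 2 in shControl, PTPRC, found on all leukocytes, had at most 1, and the 7 markers summed to 1.61 and 1.80 CPM in shTFE3 against 1.88 and 1.06 CPM in shControl; the part of such cells in the SLC15A3 counts was not tested. SLC15A3 shares 76 exon bases with TMEM132A on the opposite strand, and the strand setting of the counting is not given in the sources used here.

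CTNS encodes cystinosin, the exporter of cystine, whose loss causes cystinosis with early damage to the renal proximal tubule. It (ENSG00000040531, chromosome 17, 3636468 to 3661542, plus strand) had 14.9 and 13.7 CPM in shTFE3, against 18.6 and 19.0 CPM in shControl. The groups did not overlap. CTNS fell (log2 fold change -0.40 ± 0.102 SE, edgeR adjusted p 0.00552). The call was lost in 4 of 11 alternatives, where the adjusted p was 0.101 without a filter, 0.103 by DESeq2, 0.0553 when shTFE3 replicate 1 was left out and 0.109 when shTFE3 replicate 2 was. An antisense gene shares 88 exon bases with CTNS.

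SLC17A5 encodes sialin, which exports sialic acid freed from glycoproteins and is mutated in Salla disease. It (ENSG00000119899, chromosome 6, 73593379 to 73654155, minus strand) had 19.9 and 18.4 CPM in shTFE3, against 23.1 and 27.4 CPM in shControl. The groups did not overlap, and the control libraries were the more scattered. SLC17A5 fell to a like extent (log2 fold change -0.40 ± 0.099 SE, edgeR adjusted p 0.00432). Its call was lost in 5 of 11 alternatives, where the adjusted p was 0.197 without a filter, 0.0659 by DESeq2, 0.137 without shControl replicate 2 (log2 fold change -0.27), 0.103 when shTFE3 replicate 1 was left out and 0.186 when shTFE3 replicate 2 was.

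SLC29A3, an equilibrative nucleoside transporter of late endosomes and lysosomes, was the exporter called higher. It (ENSG00000198246, chromosome 10, 71319258 to 71381423, plus strand) had 27 and 27 counts in shTFE3, against 11 and 15 in shControl, or 1.503 and 1.52 CPM in shTFE3, against 0.645 and 0.881 CPM in shControl. The exact Poisson 95% interval of 27 counts runs from 17.8 to 39.3, and those of 11 and 15 counts reach up to 19.7 and 24.7, so that the intervals of single libraries overlap; they cover counting error only. Its fitted log2 fold change was 0.98 with a 95% interval of 0.29 to 1.67 (edgeR adjusted p 0.0349). The call was lost in 6 of the 10 alternatives that tested the gene, including DESeq2 (adjusted p 0.374), no filter on low counts (0.142) and each fit with 1 library left out (0.0763 to 0.278). A minimum of 50 counts in 2 libraries removed it. Of its 5439 exon bases, 723 are shared with another gene on the same strand, which makes its level uncertain.

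**Figure D3:**
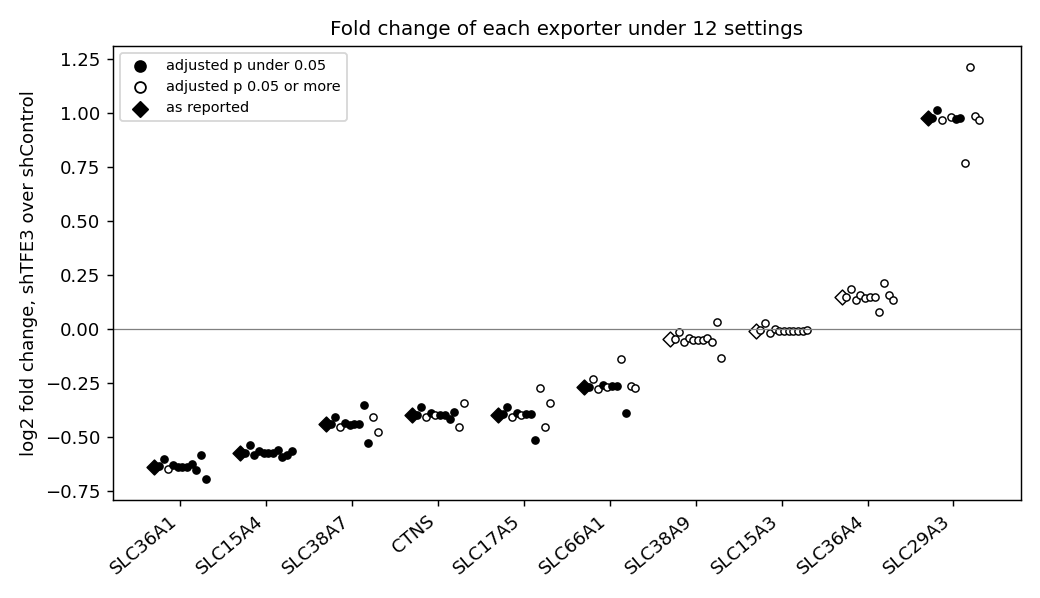
Log2 fold change of shTFE3 over shControl (vertical axis) of each exporter as reported (diamond) and under the alternatives (circles), filled where the adjusted p was under 0.05. SLC15A4 is filled throughout, SLC36A1 in all but 1, while SLC66A1, SLC17A5, CTNS and SLC29A3 have open circles under several settings.

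To set levels of different genes side by side, CPM was divided by the exon length in kilobases from GENCODE release 29. These lengths equal those in the authors' deposited table for 114 of its 546 genes, so levels per kilobase depend on the annotation. SLC66A1 was the most abundant exporter on this scale, with 11.1 ± 0.034 CPM per kilobase in shTFE3 and 13.4 ± 1.64 in shControl (SD, n = 2 each). In shControl it was followed by SLC38A7 (8.10), SLC17A5 (6.9996), SLC15A4 (6.75), CTNS (5.53), SLC36A1 (3.54), SLC36A4 (3.28), SLC38A9 (2.57), SLC15A3 (0.537) and SLC29A3 (0.14). The only neighbours in that order whose control libraries overlapped were SLC17A5 and SLC15A4. In shTFE3 the order was the same down to CTNS, then SLC36A4 (3.64), SLC38A9 (2.49), SLC36A1 (2.28), SLC15A3 (0.535) and SLC29A3 (0.278), and the libraries of SLC38A9 and SLC36A1 overlapped. SLC36A1 thus stood at rank 8 of 10 in shTFE3 and at rank 6 of 10 in shControl. With the longest transcript as the length, SLC36A1 had 2.75 CPM per kilobase in shTFE3 and 4.28 in shControl, below SLC36A4 and SLC38A9 in both groups. SLC15A4 then had 8.98 in shTFE3 and 13.4 in shControl, against 9.17 and 12.4 for SLC38A7 and 5.55 and 7.30 for SLC17A5, so the order of these genes also depends on the length used.

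Summed over the 10 exporters, the level was 40.4 and 40.4 CPM per kilobase in shTFE3, against 51.8 and 49.9 in shControl, 79.4% of the control level. SLC36A1 made up 5.43% and 5.86% of that sum in shTFE3, against 6.90% and 7.03% in shControl. The share of SLC36A4 was 8.93% and 9.06% in shTFE3, against 6.04% and 6.87% in shControl. SLC15A4 had 11.3% and 11.1% of the sum in shTFE3, against 13.2% and 13.4% in shControl. These shares describe mRNA of the exporters and not transport.

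**Figure D4:**
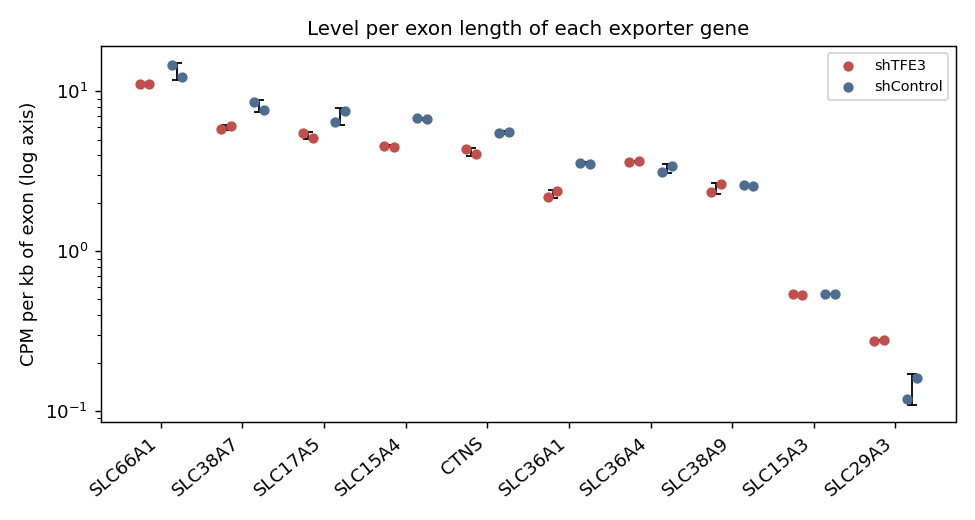
Level in CPM per kilobase of exon (vertical axis, log scale) of the 10 exporters, ordered by the control mean, with 1 point a library and lines at ± SD (n = 2 each). The genes span from 13.4 for SLC66A1 to 0.14 for SLC29A3 in shControl, and SLC36A1 lies below SLC36A4 in shTFE3 but above it in shControl, where with longest-transcript lengths it is below (4.28 against 5.28).

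The genes most like SLC36A1 were those whose log2 CPM over the 4 libraries, each gene centred on its own mean, lay nearest to it among 10912 genes averaging 100 counts or more per library. They were PLAC8 at a distance of 0.031, the folliculin gene FLCN at 0.032, GAS6 at 0.037, GLMP at 0.037 and DTNA at 0.039, against a median distance of 0.65. With 4 libraries, nearness means little beyond a fall of like size in both knockdown libraries; their log2 fold changes lay between -0.66 and -0.62. Among the exporters SLC15A4 was nearest at 0.114, then SLC38A7 at 0.224, and SLC29A3 farthest at 1.56.

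Of 30 other lysosomal transporters and their partners, 27 were tested, of which 6 fell, 1 rose and 20 did not pass, with a median log2 fold change of -0.030. That is 22.2% lower, against 12.9% lower and 10.3% higher over all tested genes. GLMP, a glycoprotein that protects the lysosomal dipeptide carrier MFSD1 from degradation, had 29.9 and 31.9 CPM in shTFE3, against 49.5 and 46.9 CPM in shControl (log2 fold change -0.64, edgeR adjusted p 9.12e-07). MFSD1 itself had a value of -0.17 and did not pass (edgeR adjusted p 0.0817). The heme transporter SLC48A1 (log2 fold change -0.45), the metal carrier SLC39A8 (-0.34) and SLC49A4 (-0.38) fell as well. The gene that rose was the lysosomal potassium and proton channel TMEM175 (331 and 337 counts in shTFE3, 262 and 228 in shControl), named after its value was seen. In this list 3 genes were lower by DESeq2 and 2 without either shTFE3 replicate, and none of the calls named here but that of GLMP held with no filter on low counts.

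Of 32 listed proteins that exporters signal through or with, 27 were tested, of which 12 fell, 2 rose and 13 did not pass, with a median of -0.18. The share called lower was 44.4%, against 12.9% of all tested genes, of which 10.3% were higher. FLCN, which acts on the Rag GTPases that SLC38A9 also binds, had 24.4 and 26.6 CPM in shTFE3, against 39.3 and 39.6 CPM in shControl (log2 fold change -0.63, edgeR adjusted p 2.62e-06). The Rag genes RRAGC (-0.62) and RRAGD (-0.55) fell too, while the kinase gene MTOR rose (0.35, edgeR adjusted p 8.77e-05). Of the partners of single exporters, WDR41, which SLC66A1 recruits with C9orf72 and SMCR8, fell (-0.23, edgeR adjusted p 0.0108), and SMCR8 at -0.18 and C9orf72 at 0.16 did not pass (edgeR adjusted p 0.0536 and 0.304); these 3 were named after their values were seen. TASL, the adaptor of SLC15A4, and the receptors TLR7 and TLR9 had 0 counts in every library, while IRF5, the factor downstream of them, fell (-0.44, edgeR adjusted p 0.000192). The number called lower was 7 without shTFE3 replicate 1, 5 without shTFE3 replicate 2 and 1 with no filter on low counts.

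Of 28 relatives in the same carrier families, 15 were tested, of which 7 fell, 0 rose and 8 did not pass, with a median of -0.26. This made 46.7% lower, beside 12.9% lower and 10.3% higher among all tested genes. The urate and phosphate transporter genes SLC17A1 and SLC17A3, known from the renal proximal tubule, fell (log2 fold changes -1.15 and -0.81), as did SLC17A4 (-2.55) and SLC38A4 (-2.26). SLC17A4 had 2 and 3 counts in shTFE3, against 13 and 16 in shControl, and SLC38A4 had 6 and 3 counts in shTFE3, against 25 and 17 in shControl, so these fitted sizes rest on few counts. The renal epithelial markers CDH2, CDH6 and KRT18 fell as well, with log2 fold changes of -0.64, -0.55 and -0.28, and their part in the fall of the tubule genes was not tested. The plasma membrane glutamine carriers SLC38A1 and SLC38A2, whose mean levels were 468 and 435 CPM in shTFE3 and 508 and 430 CPM in shControl, did not pass (edgeR adjusted p 0.114 and 0.88). Among these relatives the number called lower was 1 with no filter, 3 by DESeq2, 4 with at least 50 counts in 2 libraries, and 2 without either shTFE3 replicate.

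**Figure D5:**
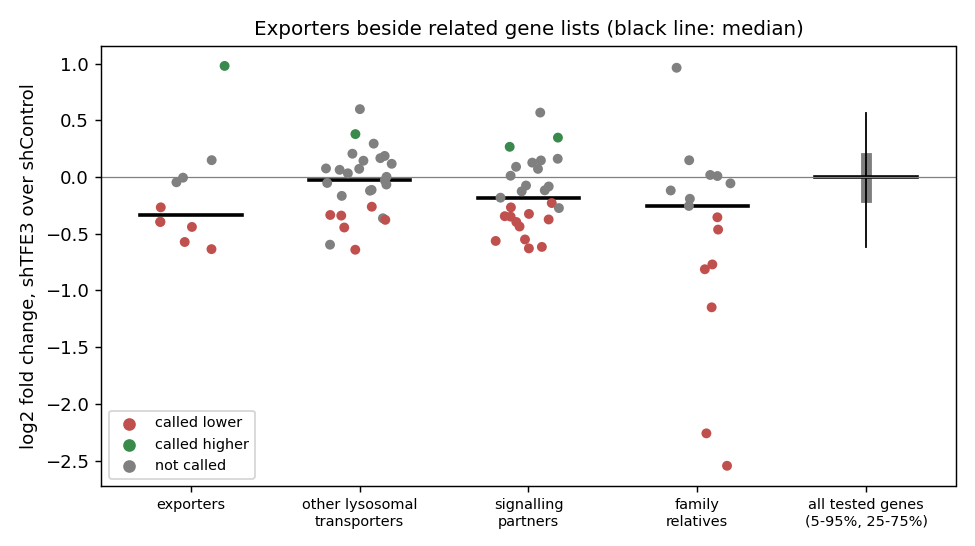
Log2 fold change of shTFE3 over shControl (vertical axis) of every tested gene of the exporters and of 3 related lists, with the list median as a black line, beside the median and the ranges from 5 to 95% and 25 to 75% of all tested genes. The median is -0.33 for exporters, -0.030 for other lysosomal transporters, -0.18 for signalling partners, -0.26 for family relatives and 0.0015 for all tested genes.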

How the data were processed

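Polyadenylated RNA was sequenced as paired 150-base reads. The count table deposited by the authors gives raw reads for each Ensembl gene. The submitters' processing notes name Trim Galore, STAR, featureCounts and DESeq2, and build hg38, with no versions. For annotation, strand setting and multiply matching reads, nothing is stated in the sources used here. The other table that the authors deposited is their own comparison for selected genes: mean normalized signal, log2 fold changes, a test score, and p-values; it is quoted only as theirs.

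Groups came from the sample titles, and symbols from a gene name table, or GENCODE release 29 where it had none. Coordinates and exon lengths are from GENCODE release 29 (GRCh38), which has the same identifier version for 35940 of 61533 identifiers, and promoter sequences from RefSeq (GRCh38.p14). The deposited counts were tested with edgeR 4.0.16 (R 4.3.3), using TMM, filterByExpr by group, the quasi-likelihood test and Benjamini-Hochberg at 0.05, with the group as the only term. The filter left 15950 genes with 99.8% of counts. The SE was taken as the log2 fold change over the root of the F value. Log2 CPM for the likeness measure used a prior count of 2. The procedure was tested on simulated counts. Replicates differed by more than sampling noise (chi-square per degree of freedom 3.34 in shTFE3 and 2.02 in shControl).

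Alternatives were DESeq2 1.42.0 as a test or for size factors, library totals alone, limma-voom (limma 3.58.1), other filters, a replicate term and each library left out. The genes and lists were chosen with earlier results of these data known. The naming rule took TFE3, the 10 exporters, the 5 genes most like SLC36A1 and, in each list, up to 4 called genes with the smallest p; other genes were named after their values were seen. One listed symbol, SAMTOR, matched no row.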

Additional observations from a re-analysis of the deposited data

How the results depend on the processing

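TFE3 fell under each of the 11 alternatives, with log2 fold changes from -0.95 to -0.89 when 1 library was left out. The 3709 called genes became 1947 by DESeq2, 384 without filtering, and 1043 to 2514 with 1 library left out; library totals alone changed the share of lower calls to 44.2%, against 55.5% with TMM factors. With 1 library left out, called exporters numbered 2 to 5 lower and 0 higher; other transporters 2 to 5 lower and 0 to 2 higher; signalling partners 5 to 10 lower and 1 to 3 higher; relatives 2 to 7 lower and 0 higher. With no filter, 1 gene of each of the 4 lists was lower and 0 were higher. By DESeq2, 3 exporters, 3 other transporters and 3 relatives were lower, and 0 exporters, 0 other transporters and 1 signalling partner were higher. With at least 50 counts in 2 libraries, 0 exporters were higher and 4 relatives lower, since SLC29A3 and low relatives were no longer tested. The higher calls among other transporters numbered 3 with library totals alone. The cause of the other shifts was not tested. Fits with 1 library left out have 1 residual degree of freedom and priors from 3.98 to infinite, so their counts are not on equal terms. Depth limits SLC15A3 and SLC29A3, which had at most 59 counts in a library.

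Deviations of same-numbered libraries had a correlation of -0.096 over 10914 genes. With 2 libraries in each group, this cannot tell whether same-numbered libraries were infected or handled together. With the replicate block 2 other transporters were higher, against 1 without it, and every call on an exporter stood. That fit has 1 residual degree of freedom and an infinite prior, so its calls are not on equal terms with the main ones.

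With the longest transcript as length, the control levels per kilobase were 4.28 for SLC36A1, 5.28 for SLC36A4, 12.4 for SLC38A7, 6.45 for SLC38A9, 16.7 for SLC66A1, 0.717 for SLC15A3, 13.4 for SLC15A4, 6.56 for CTNS and 0.291 for SLC29A3. Counting only bases before the start, 6.34% of promoter windows hold CACGTG, 0.854% TCACGTGA and 9.42% CATGTG.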

Other observations

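The motifs seen at SLC36A1 were also counted over 11269 tested genes with a RefSeq promoter window, as a description with no test. Of these genes 13.9% were called lower and 11.3% higher after TFE3 knockdown. Of 247 with TCACGTGA in a window, 21.5% were called lower and 8.91% higher. Of 1391 with CACGTG, 237 (17%) were called lower and 8.99% higher, and of 1128 with CATGTG, 18.5% were called lower and 11.3% higher. Of the exporters that fell, SLC36A1 and SLC38A7 hold at least 1 of the 3 motifs in these windows, and SLC15A4, CTNS, SLC17A5 and SLC66A1 hold none.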
